A study of Mus musculus with 8 samples.

Results

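The genes of hypoxia sensing and of the response to it were examined in bulk RNA-seq counts of mouse retina: the transcription factor subunits *Hif1a* and *Epas1*, the oxygen-sensing genes *Vhl*, *Egln1* and *Egln3*, and the target genes *Adm*, *Ankrd37*, *Bnip3*, *Pdk1* and *Ddit4*. These 10 genes were taken by their symbols from the 54532 genes of the count table, and all 10 were among the 17998 genes that passed the filter on low counts. The question was whether fewer vessel transcripts in the mutant retina go together with expression of a hypoxia response.

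The samples were whole retinas of mouse pups, labelled as postnatal day 7 (the study's methods name another day of the same week): 4 samples of *Six3-Cre+; Mettl3 floxed/floxed* mice, here *Mettl3*-CKO, and 4 of littermates that the labels describe only as control. METTL3 is the enzyme of the complex that writes m6A on RNA, and *Six3-Cre* drives recombination in retinal progenitor cells, so that endothelial cells, pericytes, astrocytes and microglia, which enter the retina from outside, are not expected to be recombined. Neither the Cre and *Mettl3* alleles of the controls nor pooling of animals within a sample is given in the sources used here, so the p-values measure the spread between these samples only. Counts totalled between 16227095 and 20281517 per sample. Levels are given as CPM, counts divided by the TMM-scaled library total, which corrects for differences in library composition. Genes were tested by quasi-likelihood in edgeR, and p-values were adjusted after Benjamini and Hochberg over all 17998 genes, with a call at an adjusted p-value under 0.05.

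Cells sense oxygen through prolyl hydroxylases, the EGLN enzymes. When oxygen is plentiful they hydroxylate the HIF alpha subunits HIF1A and EPAS1 (also called HIF2A), which the VHL ubiquitin ligase then marks for degradation. When oxygen falls, the alpha subunits persist, pair with ARNT and bind DNA at sites with an RCGTG core, raising genes of glucose uptake, glycolysis, mitophagy and vessel growth. In the newborn retina, which is still being covered by vessels, neurons and astrocytes ahead of the vascular front use this pathway to produce VEGFA. HIF activity is set mostly by the stability of the alpha protein, so the mRNAs of the sensors and of the alpha subunits are not themselves a measure of it, whereas the mRNAs of the targets lie downstream.

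To show the letters that the HIF complex recognises in the genes at issue, the stretch around the start site, 250 bases before it to 50 bases after it, is given for 5 genes from RefSeq on GRCm38.p6, each read 5′ to 3′ on its own strand: *Hif1a* because its mRNA was called lower, the sensor *Egln1*, the targets *Ankrd37* and *Bnip3*, and the glucose transporter *Slc2a1*, the single gene called higher among the other HIF targets described below. Capitals mark ACGTG or its reverse complement CACGT, and CACGTG where both overlap.
Hif1a (chr12:73907617-73907916, plus strand): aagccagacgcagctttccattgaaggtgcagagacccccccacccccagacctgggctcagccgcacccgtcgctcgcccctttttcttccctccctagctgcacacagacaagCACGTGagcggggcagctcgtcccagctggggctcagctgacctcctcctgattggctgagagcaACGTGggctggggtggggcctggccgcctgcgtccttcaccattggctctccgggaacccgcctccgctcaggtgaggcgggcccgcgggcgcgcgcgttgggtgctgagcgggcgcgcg
Egln1 (chr8:124949205-124949504, minus strand): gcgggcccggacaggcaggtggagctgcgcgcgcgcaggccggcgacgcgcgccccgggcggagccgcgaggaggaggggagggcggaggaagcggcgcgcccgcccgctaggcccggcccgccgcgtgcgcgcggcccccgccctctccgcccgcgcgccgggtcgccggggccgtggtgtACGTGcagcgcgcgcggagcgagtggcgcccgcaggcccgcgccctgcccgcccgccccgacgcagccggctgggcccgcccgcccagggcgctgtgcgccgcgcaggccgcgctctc
Ankrd37 (chr8:45999801-46000100, minus strand): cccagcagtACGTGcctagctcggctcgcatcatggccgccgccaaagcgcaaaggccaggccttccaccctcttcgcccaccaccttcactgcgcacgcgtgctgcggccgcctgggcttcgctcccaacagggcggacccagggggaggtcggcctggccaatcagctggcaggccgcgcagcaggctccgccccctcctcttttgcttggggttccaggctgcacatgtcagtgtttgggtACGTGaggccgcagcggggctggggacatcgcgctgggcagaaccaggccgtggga
Bnip3 (chr7:138909457-138909756, minus strand): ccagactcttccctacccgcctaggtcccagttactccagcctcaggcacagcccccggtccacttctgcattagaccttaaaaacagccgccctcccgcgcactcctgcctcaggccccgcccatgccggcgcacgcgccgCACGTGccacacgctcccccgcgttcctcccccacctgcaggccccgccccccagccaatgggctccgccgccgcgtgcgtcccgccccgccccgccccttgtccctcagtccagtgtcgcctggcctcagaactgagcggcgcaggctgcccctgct
Slc2a1 (chr4:119108495-119108794, plus strand): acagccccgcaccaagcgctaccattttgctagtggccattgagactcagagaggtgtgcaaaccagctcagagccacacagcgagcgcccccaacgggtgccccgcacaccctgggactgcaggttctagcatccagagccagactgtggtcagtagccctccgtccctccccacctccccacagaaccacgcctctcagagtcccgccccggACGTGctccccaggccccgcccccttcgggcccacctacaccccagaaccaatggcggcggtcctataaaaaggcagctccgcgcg
A RefSeq window was found for 9 of the 10 genes, *Epas1* being the one without. ACGTG, on either strand, was present in the windows of 6 genes (*Hif1a*, *Egln1*, *Egln3*, *Ankrd37*, *Bnip3* and *Ddit4*), which is 66.7% of the 9, against 21.8% of the 27025 genes with a window. The match in *Slc2a1* lay 36 bases before the start site, that in *Egln1* 68 bases before it, and the matches in *Ankrd37* 241 and 6 bases before it. In *Hif1a* and *Bnip3* one match was part of CACGTG, the palindrome also read by E-box factors, which counts on both strands. The other form of the core, GCGTG, is common in windows rich in G and C, being in 32.4% of all windows. Counted by gene, it was present for 6 of the 9 genes and for 9500 of the 27025 genes with a window. Five-letter matches describe the sequence and not binding, and no binding was measured.

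The targeted gene was examined first. *Mettl3* was at 33.8, 32.5, 29.4 and 29.3 CPM in controls 1 to 4 and at 21.1, 29.6, 21.3 and 24.3 CPM in *Mettl3*-CKO retinas 1 to 4. *Mettl3*-CKO retina 2 reached the level of 2 controls, and the other mutant retinas were below all controls. The log2 fold change was -0.38 (SE 0.12) and did not pass the test (edgeR, adjusted p = 0.0602), although DESeq2 (adjusted p = 0.0320) and limma voom with sample weights (adjusted p = 0.0139) called it. Those tools call more genes, 14.2% and 20.6% of the genes they test in either direction against 10.5% in edgeR. The gene counts hold reads of all exons and of unrecombined cells, and *Mettl3* shares 933 of its exon bases with *Tox4* on the opposite strand.

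Of the 10 genes, none was called higher and 2, *Hif1a* and *Epas1*, were called lower in *Mettl3*-CKO retinas, beside 6.49% of all tested genes called higher and 4.05% called lower. The median log2 fold change of the 10 genes was -0.22, with 7 below 0, where the median over all tested genes was -0.01. Without control 1 the median of the 10 genes was -0.05, with 7 still below 0 and *Hif1a* and *Epas1* still called lower, so most of the median's distance from 0 rested on that library. The groups did not overlap for 1 of them, *Epas1*, against 17.4% of all tested genes. Of the 10 genes, 6 had their highest value in control 1, as had 4668 of the 17998 tested genes. Per transcript length (FPKM, in the controls), the levels ran from *Hif1a* (60.8 ± 5.50, SD, n = 4) and *Ddit4* (57.9 ± 9.08) through *Bnip3* (32.2 ± 3.30), *Egln1* (29.6 ± 1.73), *Vhl* (19.3 ± 2.10), *Epas1* (10.9 ± 1.94), *Pdk1* (10.02 ± 0.996), *Ankrd37* (5.49 ± 1.997) and *Egln3* (1.56 ± 0.443) to *Adm* (0.548 ± 0.165). Ranges of neighbours overlapped in this order between *Hif1a* and *Ddit4*, between *Bnip3* and *Egln1* and between *Epas1* and *Pdk1*, and the other neighbours did not overlap.

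**Figure D1:**
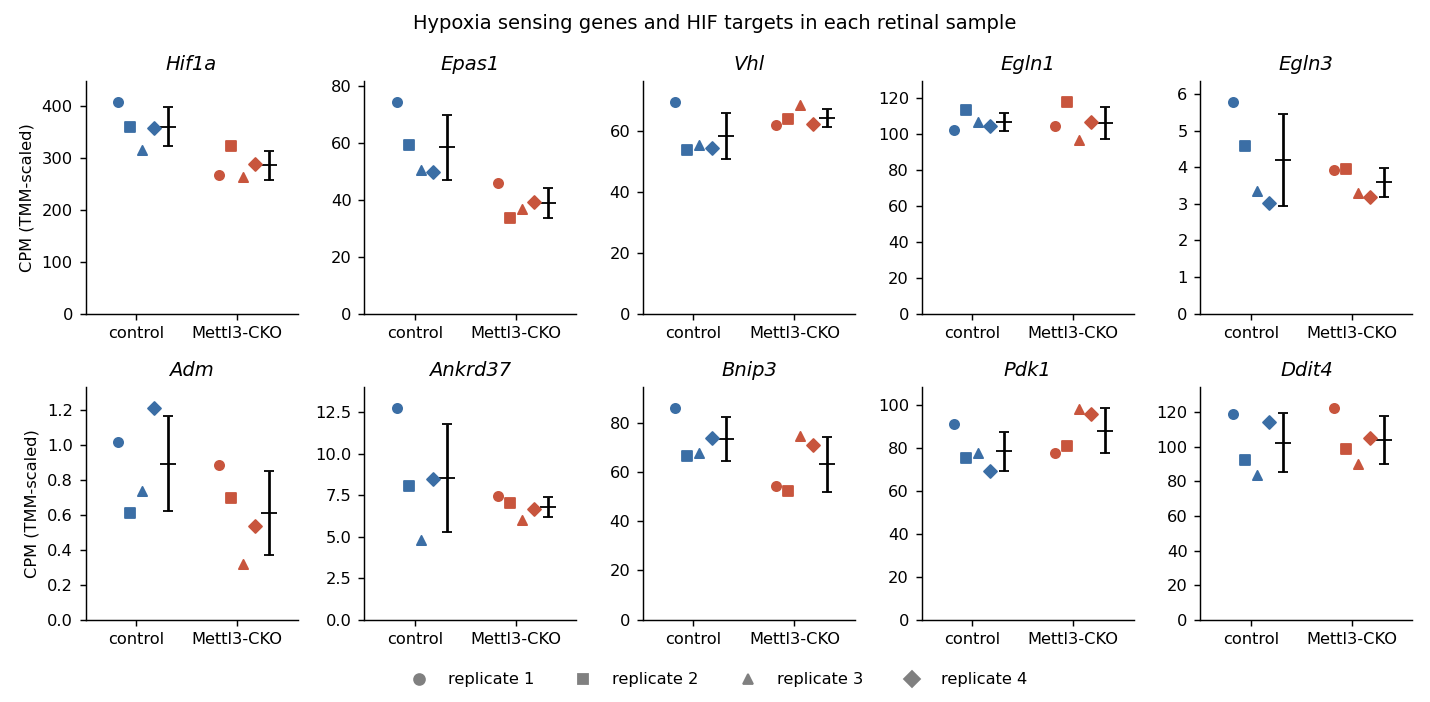
Level of the 10 genes in each retinal sample, in TMM-scaled CPM on an axis from 0 (blue, control; red, *Mettl3*-CKO; marker shape, replicate number; black, mean and SD, n = 4 per group). The groups are apart only for *Epas1* (lowest control 49.7, highest *Mettl3*-CKO 46.0 CPM). Control 1 is the highest sample for 6 of the 10 genes, and for 4668 of the 17998 tested genes.

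The mRNAs of both oxygen-regulated alpha subunits were lower. *Hif1a* (ENSMUSG00000021109, GRCm38 chr12:73901375-73947530, plus strand), which encodes the alpha subunit found in nearly all cells, was at 408, 360.0, 317 and 358 CPM in controls 1 to 4. In the *Mettl3*-CKO retinas it was at 267, 324, 264 and 289 CPM. Control 1 was the highest sample, and *Mettl3*-CKO retina 2 lay above control 3, so the groups overlapped. *Hif1a* fell by 0.33 on the log2 scale (SE 0.10, adjusted p = 0.0480, edgeR), that is from 361 ± 37.4 to 286 ± 27.8 CPM (SD, n = 4), a change of -20.7% with a 95% confidence interval from -31.6% to -8.06%. This call stood close to the threshold: the adjusted p-value was 0.0534 with the replicate number as a block, 0.145 without controls 1 and 4, and above 0.05 when any one of control 2 (0.105), control 4 (0.0933) or *Mettl3*-CKO retina 1 (0.148), 3 (0.129) or 4 (0.0898) was left out. *Hif1a* shares 478 of its 5896 exon bases with *Gm15283* and *Gm49321*.

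*Epas1* (GRCm38 chr17:86753907-86833410, plus strand), whose protein is the HIF alpha subunit best known from endothelial cells and astrocytes, was at 74.2, 59.1, 50.2 and 49.7 CPM in controls 1 to 4. It was at 46.0, 33.7, 36.6 and 39.0 CPM in *Mettl3*-CKO retinas 1 to 4. Every mutant retina was below every control, the nearest pair being *Mettl3*-CKO retina 1 and control 4. *Epas1* fell by 0.59 on the log2 scale (SE 0.14, adjusted p = 0.0182, edgeR), a change of -33.4% (95% confidence interval from -45.8% to -18.3%). Without control 1, its highest sample, the log2 fold change was -0.45 (adjusted p = 0.00998), and the adjusted p-value rose to 0.0572 without *Mettl3*-CKO retina 2 and to 0.0570 without *Mettl3*-CKO retina 3.

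No oxygen-sensing gene passed the test. *Vhl* (GRCm38 chr6:113623959-113631633, plus strand), the substrate receptor of the ubiquitin ligase, was at 69.4, 53.7, 55.3 and 54.4 CPM in controls 1 to 4 and at 62.1, 63.8, 68.5 and 62.3 CPM in *Mettl3*-CKO retinas 1 to 4. Control 1 stood above all other samples, and the other 3 controls stood below all *Mettl3*-CKO retinas. Its log2 fold change was 0.14 (95% confidence interval -0.07 to 0.35, adjusted p = 0.428, edgeR), and limma voom, which weights the samples by their quality, called it higher (0.22, adjusted p = 0.0425), as it did 11.9% of all tested genes.

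*Egln1* (GRCm38 chr8:124908587-124949324, minus strand), the main oxygen sensor among the prolyl hydroxylases, was at 102, 114, 107 and 104 CPM in controls 1 to 4 and at 104, 118, 96.5 and 106 CPM in *Mettl3*-CKO retinas 1 to 4. The *Mettl3*-CKO range enclosed that of the controls, and the log2 fold change of -0.01 had a 95% confidence interval from -0.19 to 0.18 (adjusted p = 0.971, edgeR), the narrowest interval among the 10 genes. *Egln3* (GRCm38 chr12:54178981-54203860, minus strand), the prolyl hydroxylase that is itself a strong HIF target, was low in both groups, at 5.78, 4.59, 3.36 and 3.02 CPM in controls 1 to 4 and at 3.93, 3.94, 3.29 and 3.18 CPM in *Mettl3*-CKO retinas 1 to 4. The controls spread on both sides of the mutant retinas. Its log2 fold change was -0.23 (95% confidence interval -0.70 to 0.25, adjusted p = 0.580, edgeR).

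Among the 5 target genes none passed the test, and their log2 fold changes lay on both sides of 0. *Adm* (GRCm38 chr7:110627661-110629820, plus strand), which encodes adrenomedullin, a vasodilator peptide that acts on endothelium, was at 1.02, 0.612, 0.734 and 1.21 CPM in controls 1 to 4 and at 0.885, 0.696, 0.319 and 0.537 CPM in *Mettl3*-CKO retinas 1 to 4. These levels came from 6 to 20 counts per sample, the lowest depth among the 10 genes, and the groups overlapped. The log2 fold change of -0.55 had a 95% confidence interval from -1.37 to 0.27 (adjusted p = 0.411, edgeR).

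*Ankrd37* (GRCm38 chr8:45996902-46005707, minus strand), an ankyrin repeat gene known as a direct HIF target, was at 12.7, 8.08, 4.83 and 8.46 CPM in controls 1 to 4 and at 7.47, 7.02, 6.003 and 6.65 CPM in *Mettl3*-CKO retinas 1 to 4. The controls held both the highest and the lowest sample. Its log2 fold change of -0.33 (95% confidence interval -0.83 to 0.17, adjusted p = 0.425, edgeR) was -0.06 without control 1, and 406 of its 1539 exon bases are shared with *Lrp2bp* and *Ufsp2* on the other strand. *Bnip3* (GRCm38 chr7:138890836-138909519, minus strand), a mitochondrial receptor for mitophagy, was at 85.8, 66.5, 67.7 and 73.5 CPM in controls 1 to 4 and at 54.2, 52.4, 74.5 and 70.8 CPM in *Mettl3*-CKO retinas 1 to 4. *Mettl3*-CKO retinas 1 and 2 were below all controls, and retinas 3 and 4 were within their range. The log2 fold change was -0.22 (95% confidence interval -0.50 to 0.06, adjusted p = 0.327, edgeR), and *Bnip3* shares 504 exon bases with *Gm45507*.

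*Pdk1* (GRCm38 chr2:71873224-71903858, plus strand), the kinase that keeps pyruvate out of the mitochondrial citric acid cycle, was at 91.4, 75.4, 77.6 and 69.5 CPM in controls 1 to 4 and at 77.5, 80.9, 98.3 and 95.8 CPM in *Mettl3*-CKO retinas 1 to 4. Mutant retinas 3 and 4 were the highest samples and retinas 1 and 2 lay among the controls. The log2 fold change was 0.17 (95% confidence interval -0.07 to 0.41, adjusted p = 0.388, edgeR). *Ddit4* (GRCm38 chr10:59949669-59951834, minus strand), which encodes an inhibitor of mTORC1 signalling and answers to hypoxia, to endoplasmic reticulum stress and to p53, was at 119, 92.5, 83.5 and 114 CPM in controls 1 to 4 and at 122, 98.6, 89.7 and 105 CPM in *Mettl3*-CKO retinas 1 to 4. The ranges nearly coincided, with a log2 fold change of 0.02 (95% confidence interval -0.25 to 0.30, adjusted p = 0.942, edgeR). Upper ends of the 95% confidence intervals of the 5 targets, as a percent change, were 20.3% for *Adm*, 12.7% for *Ankrd37*, 4.27% for *Bnip3*, 32.5% for *Pdk1* and 22.9% for *Ddit4*.

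Of the remaining machinery of the pathway, *Hif3a* alone passed the test. Of 14 further components (the ARNT partners, the hydroxylases *Egln2* and *Hif1an*, the subunits of the VHL ligase, the SIAH ligases, and the coactivators with their inhibitor *Cited2*), all passed the filter, none was called higher and 1 was called lower, with a median log2 fold change of -0.05. Over all tested genes 6.49% were called higher and 4.05% lower, with a median of -0.01. *Hif3a*, an alpha subunit that is itself induced by HIF and can oppose it, was at 9.84, 12.1, 12.3 and 11.9 CPM in controls 1 to 4 and at 7.35, 8.47, 8.29 and 6.16 CPM in *Mettl3*-CKO retinas 1 to 4. The groups did not overlap, and *Hif3a* fell by 0.61 on the log2 scale (SE 0.14, adjusted p = 0.0176, edgeR). Without *Mettl3*-CKO retina 1, control 2 or control 3 its adjusted p-value was 0.0663, 0.0550 and 0.0509. The 5 components with the highest FPKM in controls, *Elob*, *Cited2*, *Siah1a*, *Rbx1* and *Eloc*, had log2 fold changes of -0.06, 0.07, 0.12, -0.17 and 0.08, none of which passed the test.

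A wider list of 45 HIF targets served to compare the 5 target genes with others of the same response. Of its genes, 43 passed the filter, 1 was called higher (2.33%) and 5 were called lower (11.6%). Over all tested genes these shares were 6.49% and 4.05%. The median log2 fold change was -0.06, against -0.01 over all tested genes, and 25 of the 43 were below 0. The gene called higher was *Slc2a1*, the glucose transporter GLUT1 of glia, photoreceptors and the endothelium of the blood-retina barrier. It was at 333, 329, 289.9 and 281 CPM in controls 1 to 4 and at 448, 409, 387 and 363 CPM in *Mettl3*-CKO retinas 1 to 4. All mutant retinas were above all controls, and *Slc2a1* rose by 0.38 on the log2 scale (SE 0.09, adjusted p = 0.0217, edgeR). Its adjusted p-value was 0.0711 without *Mettl3*-CKO retina 1, 0.0548 without control 3 and 0.0668 without control 4.

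The 5 targets called lower serve different functions. *Ndrg1*, a gene of lipid trafficking and differentiation that is strongly induced by hypoxia in many cells, was at 783, 716, 785 and 746 CPM in controls 1 to 4 and at 361, 418, 487 and 555 CPM in *Mettl3*-CKO retinas 1 to 4. All mutant retinas were below all controls, by a gap wider than the range of the controls, and *Ndrg1* fell by 0.73 on the log2 scale (SE 0.12, adjusted p = 0.00288, edgeR), staying under 0.05 without any one sample (at most 0.0119). *Hmox1*, which degrades heme and is expressed in macrophages and stressed cells, was at 15.5, 11.7, 12.5 and 31.5 CPM in controls 1 to 4 and at 6.41, 4.06, 9.88 and 6.69 CPM in *Mettl3*-CKO retinas 1 to 4. Control 4 was well above the other controls, and all controls were above the mutant retinas. *Hmox1* fell by 1.39 on the log2 scale (SE 0.32, adjusted p = 0.0167, edgeR), with a log2 fold change of -0.97 (adjusted p = 0.0315) without control 4 and an adjusted p-value of 0.0760 without *Mettl3*-CKO retina 1.

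*Mxi1*, a repressor of MYC, fell by 0.51 on the log2 scale (SE 0.13, adjusted p = 0.0227, edgeR), from 179.6, 142, 118 and 116 CPM in controls 1 to 4 to 94.9, 102, 93.1 and 98.8 CPM in *Mettl3*-CKO retinas 1 to 4, with no overlap. The glycolytic enzyme *Aldoa* fell by 0.45 (SE 0.13, adjusted p = 0.0446, edgeR), from 705, 520.3, 543 and 510.2 CPM in controls 1 to 4 to 380.3, 340.4, 461 and 481 CPM, again with no overlap. *Vegfa*, the growth factor through which hypoxic retina attracts vessels, was at 183, 227, 206 and 245 CPM in controls 1 to 4 and at 167, 183, 154 and 179.5 CPM in *Mettl3*-CKO retinas 1 to 4. Control 1 was at the level of the highest mutant retina and the other controls were above the mutant range. *Vegfa* fell by 0.33 on the log2 scale (SE 0.10) with an adjusted p-value of 0.0497 (edgeR), so that this call was at the threshold: it was lost under upper quartile scaling (0.0521) and when any single sample other than control 1 was left out (up to 0.161). The call of *Aldoa* was lost with the replicate block (0.0564) and without any one of *Mettl3*-CKO retinas 1 to 3 or controls 2 to 4 (up to 0.157), and that of *Mxi1* without control 2 or *Mettl3*-CKO retina 1, 3 or 4 (up to 0.0844).

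Targets with the highest FPKM in the controls were, besides *Aldoa*, the glycolytic genes *Ldha*, *Eno1* and *Pgk1* and the cytokine gene *Mif*. *Ldha*, which turns pyruvate into lactate, was at 1801, 1326, 1306 and 1271 CPM in controls 1 to 4 and at 943, 880.4, 1217 and 1216 CPM in *Mettl3*-CKO retinas 1 to 4. No mutant retina reached the lowest control, and the log2 fold change of -0.42 did not pass the test (adjusted p = 0.0731, edgeR), while DESeq2 (0.0270) and limma voom (0.0477) called it. *Pgk1*, *Eno1* and *Mif* had log2 fold changes of -0.18, -0.11 and 0.04 (adjusted p = 0.233, 0.563 and 0.852, edgeR). *Car9*, whose mRNA is among the most specific for hypoxia, was at 0.589 to 1.21 CPM in controls and 0.684 to 1.22 CPM in *Mettl3*-CKO retinas. These levels were about as low as those of *Adm*, so little can be read from the overlap of the groups.

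**Figure D2:**
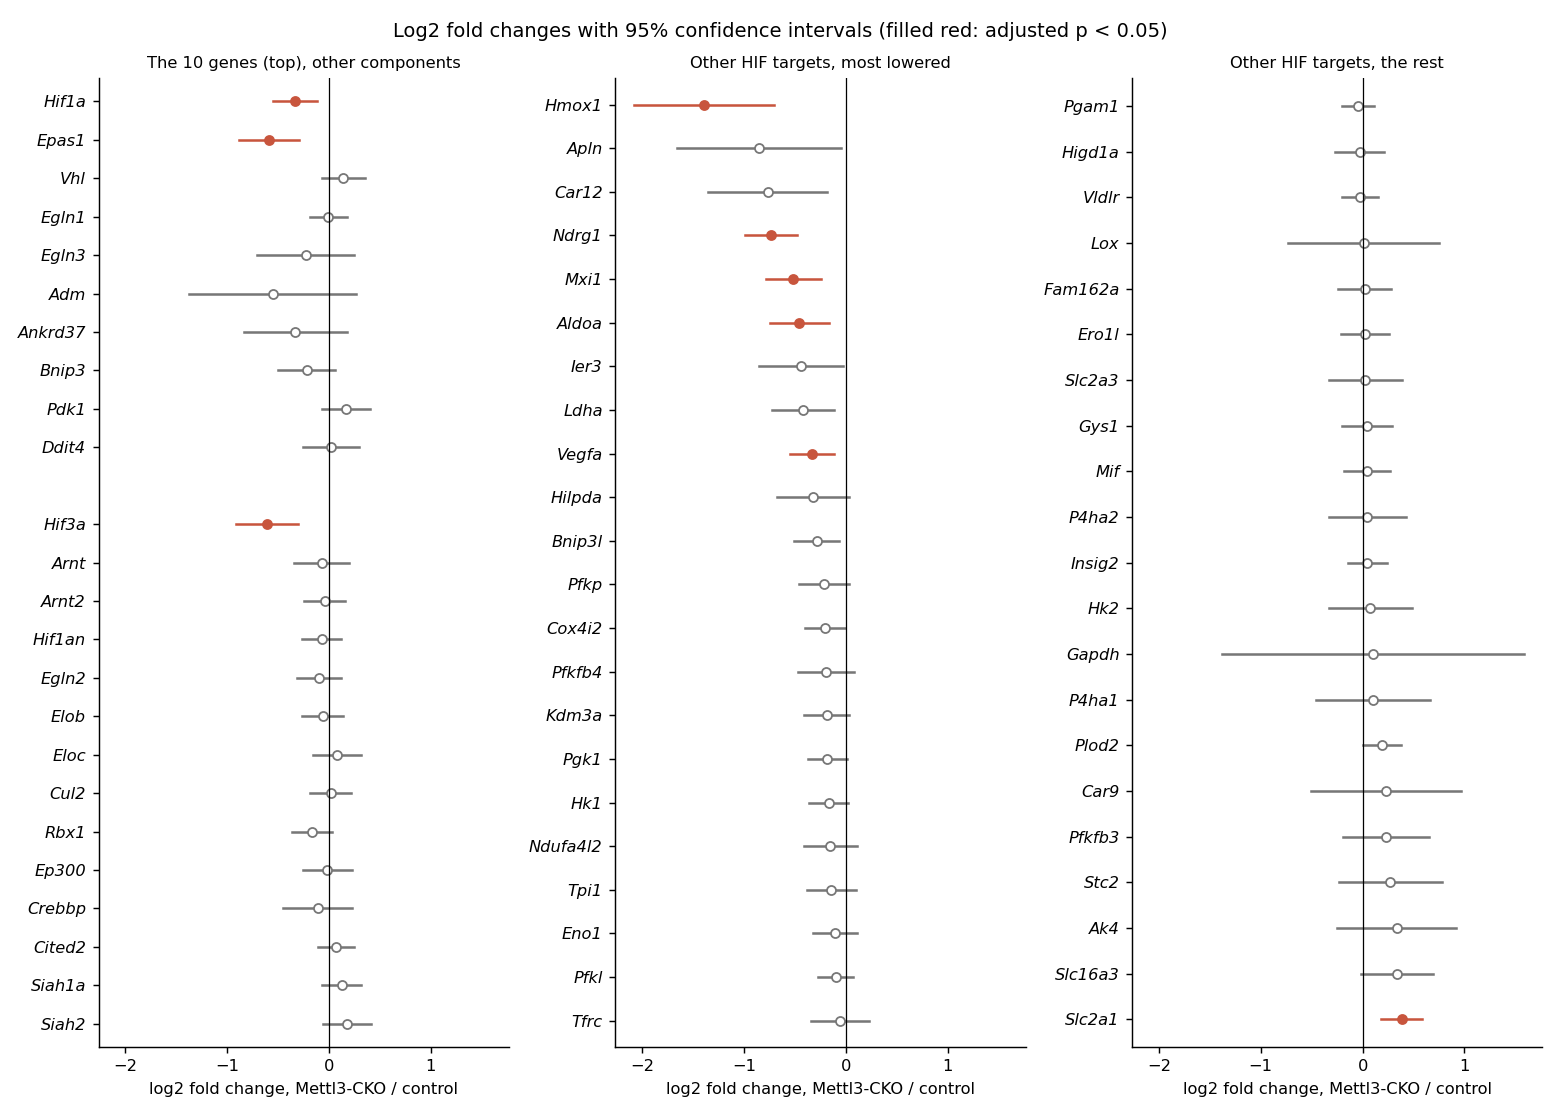
Log2 fold change (*Mettl3*-CKO over control) and 95% confidence interval of the 10 genes, 14 other pathway components and 43 other HIF targets, red where the adjusted p-value of edgeR was under 0.05. *Hif1a*, *Epas1*, *Hif3a* and 5 other targets lie to the left of 0 in red, and *Slc2a1* is the single red gene on the right.

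**Figure D3:**
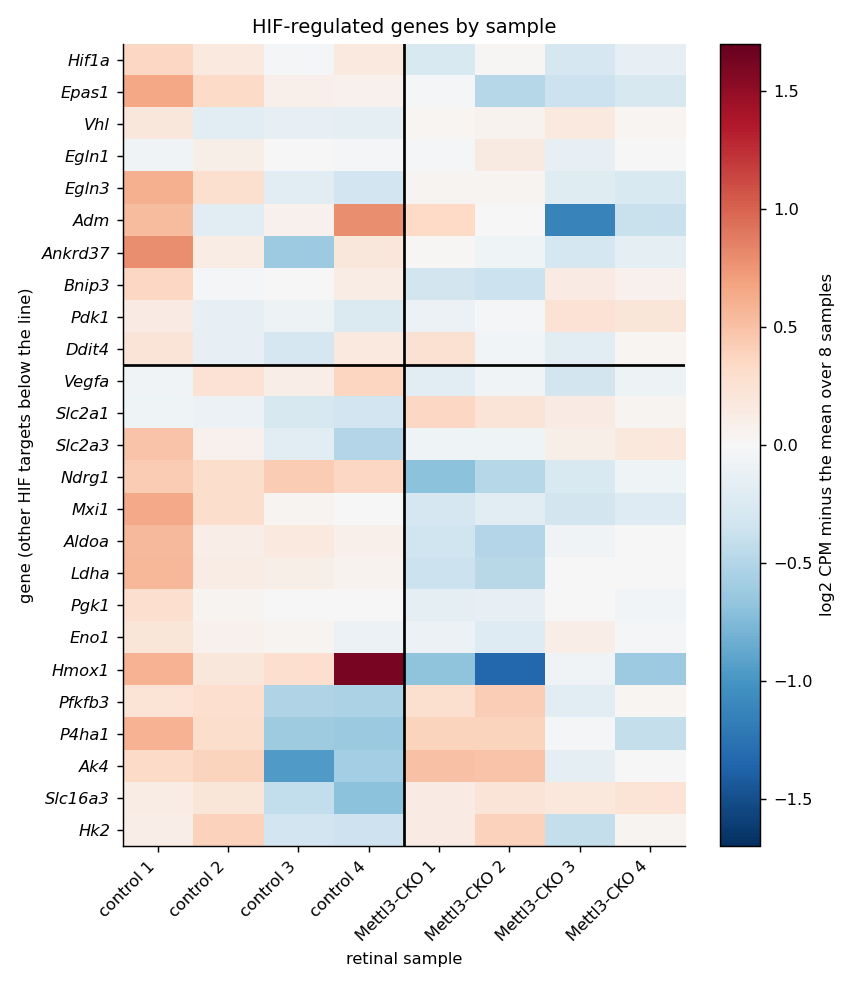
Level of the 10 genes (above the line) and of 15 other HIF targets in each sample, as log2 CPM minus the gene's mean over the 8 samples (red, above the mean; blue, below it). Control 1 is red for 9 of the 10 genes above the line, and no *Mettl3*-CKO sample is red throughout.

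Vessel transcripts were fewer in the same libraries. Of 20 endothelial genes, 17 passed the filter, none was called higher and 11 were called lower, with a median log2 fold change of -1.07. Over all tested genes 6.49% were called higher and 4.05% lower, with a median of -0.01. The 3 endothelial genes with the lowest p-values were *Flt1* (-1.34, SE 0.22, adjusted p = 0.00282), *Aplnr* (-3.03, SE 0.52, adjusted p = 0.00398) and *Cd93* (-2.11, SE 0.39, adjusted p = 0.00579, edgeR), which encode a VEGF receptor, the apelin receptor of sprouting vessels and an endothelial surface protein. Without control 1, *Aplnr* was at -2.31 and *Cd93* at -1.48, 10 endothelial genes were called lower and the endothelial median was -0.70. Without *Mettl3*-CKO retina 1, 2 or 3, 5, 5 and 4 of 19 tested endothelial genes were called lower. In those fits the endothelial medians were -1.23, -1.25 and -1.31. Lower calls over all tested genes were 185, 424 and 334 there, against 729 with all samples and 1289 without control 1. In bulk RNA, fewer endothelial cells and less RNA per endothelial cell cannot be told apart. The summed level of all 20 genes was 598 to 684 CPM in controls and 558 to 662 CPM in *Mettl3*-CKO retinas because *Kdr*, which neural cells of the young retina also express, made up 481 to 624 CPM of it. Without *Kdr* the sum was 157, 68.8, 60.3 and 70.4 CPM in controls 1 to 4 and 38.4, 34.0, 41.5 and 45.6 CPM in *Mettl3*-CKO retinas 1 to 4. Control 1, the sample highest in 6 of the 10 genes, was thus also highest in endothelial transcripts without *Kdr*. This was not particular to vessels: control 1 was also highest in the summed rod, astrocyte, Müller glial and microglial markers (4405, 215, 2232 and 92.4 CPM). It was lowest in the progenitor and cell cycle sum (1429 CPM).

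*Epas1* and *Adm* were then set against the endothelial transcripts of the same sample. The log2 ratio of *Epas1* to the endothelial sum was -3.47 ± 0.31 in controls and -3.95 ± 0.21 in *Mettl3*-CKO retinas (SD, n = 4), a difference of -0.48 (two-sided exact permutation test, p = 0.0857, adjusted over the 2 genes 0.171). With *Pecam1*, *Cdh5* and *Cldn5* alone as the endothelial measure the direction turned: the log2 ratio was 1.56 ± 0.48 in controls and 2.08 ± 0.08 in *Mettl3*-CKO retinas, a difference of 0.52 (two-sided exact permutation test, p = 0.0286, adjusted 0.0571), where 0.0286 is the lowest p-value that 4 against 4 samples allow. With the list without *Kdr*, a choice made after seeing the data, the difference was 0.48 (two-sided exact permutation test, p = 0.0571). The sign of the *Epas1* difference thus depended on whether *Kdr* was in the endothelial sum. No difference passed 0.05 after adjustment over the 2 genes, but this could hardly come out otherwise. With 4 against 4 samples, *Epas1* could pass only if *Adm* also reached the lowest p-value, so no conclusion is drawn from it. The same ratio of *Adm* differed by -0.50 for the whole list (two-sided exact permutation test, p = 0.257), and by 0.50 (p = 0.314) and 0.46 (p = 0.371) for the other 2 measures.

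**Figure D4:**
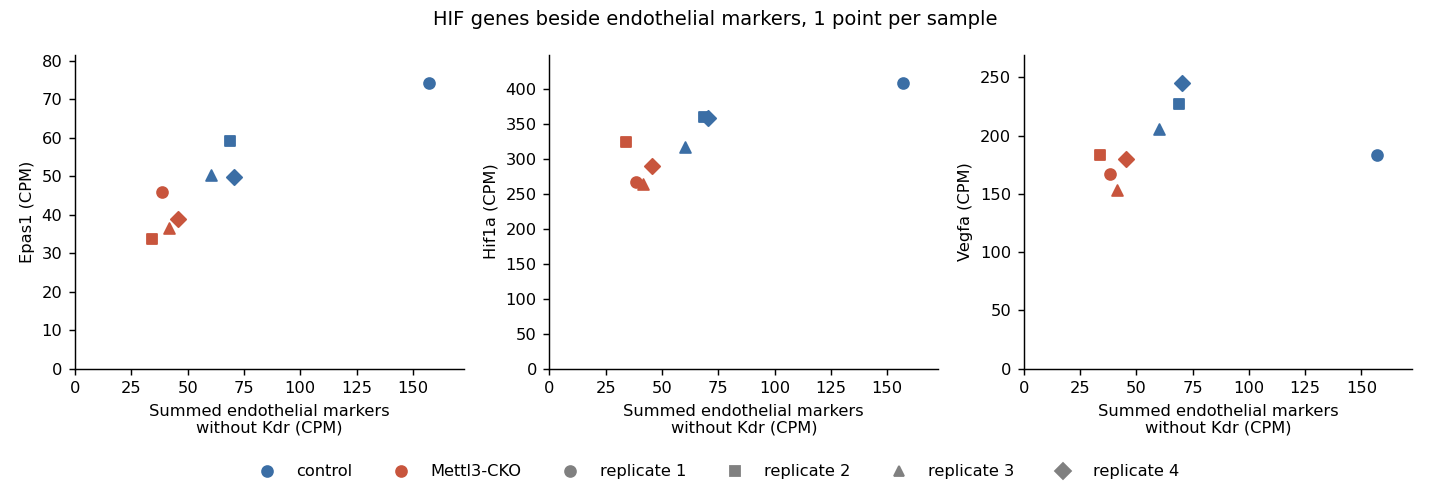
CPM of *Epas1*, *Hif1a* and *Vegfa* against the summed CPM of endothelial markers without *Kdr*, one point per sample (blue, control; red, *Mettl3*-CKO; marker shape, replicate number). All *Mettl3*-CKO samples lie at or below 45.6 CPM of endothelial markers and all controls at or above 60.3 CPM, control 1 being far to the right at 157 CPM and among the low samples for *Vegfa*.

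Transcripts of other cell types that use these genes also differed between the groups, and their part in the values above was not tested. The counts below stand beside 6.49% of all tested genes called higher and 4.05% called lower. Astrocyte markers summed to 95.1 to 215 CPM in controls and 54.7 to 83.7 CPM in *Mettl3*-CKO retinas, with 2 of 5 called lower (*Pdgfra*, -0.87, and *Gfap*, -1.31). Of the pericyte list, 7 of 10 genes were tested, and 5 of the 7 had log2 fold changes below 0, with a median of -0.70. Those called higher were 2 (*Notch3*, 1.46, and *Cspg4*, 1.203, both also made outside mural cells), and those called lower were 2 (*Rgs5* and *Abcc9*). The sum was 39.6 to 81.2 CPM in controls and 48.8 to 70.1 CPM in *Mettl3*-CKO retinas. The rod list had 5 of 10 genes called lower (*Nr2e3*, -0.81, and *Nrl*, -0.79, among them) and summed to 2891 to 4405 CPM in controls and 1496 to 2770 CPM in *Mettl3*-CKO retinas, and the list of progenitor and cell cycle genes had 3 of 10 called higher (*Mki67*, 0.98, and *Fgf15*, 1.083, among them), summing to 1429 to 1793 CPM in controls and 1879 to 2531 CPM in *Mettl3*-CKO retinas. Of 3 erythrocyte genes tested, 2 were called lower (*Hba-a1*, -2.65, and *Hbb-bs*, -2.21), the sums being 13.96 to 26.5 CPM in controls and 4.35 to 7.23 CPM in *Mettl3*-CKO retinas. Genes of the retinal pigment epithelium had 4 of 7 called lower (*Ttr*, -1.19, and *Pmel*, -0.66, among them), with sums of 92.0 to 124 CPM in controls and 59.8 to 83.6 CPM in *Mettl3*-CKO retinas. Müller glial genes had 1 of 7 called in each direction (*Glul*, 0.43, and *Rlbp1*, -1.28) and similar sums (1833 to 2232 and 1938 to 2052 CPM), and no microglial gene of 6 was called (29.5 to 92.4 and 51.1 to 71.9 CPM). Of 9 lens genes tested, 6 were called lower, and the lens list summed to 5214 CPM in control 4 and to 10.02 to 102 CPM in every other sample. Markers of retinal neurons were present at 4448 CPM or more in each control, and the photoreceptor genes *Crx* and *Nrl* were called lower among them. No marker on these lists was at 0 counts in every sample. Several of these counts changed when a single library was left out, as did the share called over all tested genes. With all samples 4.05% of all tested genes were called lower. Without *Mettl3*-CKO retina 1, 2, 3 or 4 this share was 1.01%, 2.3%, 1.83% and 3.14%, and without control 4 it was 2.54%. No lens gene was called without control 4 or without any one *Mettl3*-CKO retina. Without control 1, 2 microglial genes (*Csf1r* and *Cx3cr1*) were called higher, beside 10.3% of all tested genes. No astrocyte gene was called without *Mettl3*-CKO retina 2 and 1 without *Mettl3*-CKO retina 1, 3 or 4. The genes called lower without *Mettl3*-CKO retina 1 were 2 of the rod list, 1 of the pigment epithelium list and none of the pericyte list. Without *Mettl3*-CKO retina 4, 5 progenitor and cell cycle genes were called higher, beside 5.5% of all tested genes.

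Other programs that share *Ddit4* with hypoxia were also examined, beside 6.49% of all tested genes called higher and 4.05% called lower, with a median of -0.01. Of 11 genes of the integrated stress response, 2 were called higher, *Psat1* (0.47, adjusted p = 0.00684) and *Sesn2* (0.72, adjusted p = 0.0157, edgeR), and the median log2 fold change was 0.10. Of 14 p53 target genes, 7 were called higher and none lower, with a median log2 fold change of 0.44. Without *Mettl3*-CKO retina 1, 4 p53 targets were called higher, beside 2.78% of all tested genes. Of the p53 targets, 1 was called lower by DESeq2 and without the filter (*Plk2*) and by limma voom and without control 1 (*Perp*). *Cdkn1a*, the cell cycle inhibitor, rose by 1.33 on the log2 scale (adjusted p = 0.000227) and *Eda2r* by 2.06 (adjusted p = 0.000983, edgeR). *Ddit4* itself did not pass the test, as given above.

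For the 3 genes whose log2 CPM spanned more than 1 over the 8 samples, the tested genes with the most similar pattern were taken as those with the smallest root mean square difference of the log2 CPM values after centring, among the tested genes with a mean log2 CPM of at least 1 (14316 genes, or 14317 for *Adm*). *Epas1* was closest to *Acad12* (0.0567), *Junb* (0.0787) and *Angptl6* (0.106), where the median over all genes compared was 0.392. For *Ankrd37* these were *Gm26954* (0.0918), *Efcab7* (0.144) and *Gja1* (0.159; median 0.414), and for *Adm*, whose own values are noisy, *Kiss1r* (0.231), *Fxyd5* (0.234) and *Gm10638* (0.252; median 0.509). These are descriptions over 8 samples that share their libraries and control 1.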

How the data were processed

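Total RNA of 8 retinal samples was extracted with TRIzol, and libraries were made with the NEBNext Ultra kit. According to the methods and the processing notes, the authors aligned reads to GRCm38 (mm10) with HISAT2 and assigned them to genes with featureCounts. The deposited table holds raw counts, as its whole numbers and unequal totals show. The annotation release and the strand setting are not given in the sources used here, so overlapping genes are uncertain.

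Counts were filtered with filterByExpr, scaled by TMM and tested in edgeR 4.0.16 (R 4.3.3) by the quasi-likelihood test, 4 against 4, with a threshold of 0.05. As alternatives, DESeq2 1.42.0, limma voom (limma 3.58.1), other scalings and filters, a replicate block and fits without single samples were run. A standard error is the log2 fold change over the root of F. Precision is that of counting at 16227095 to 20281517 counts per sample, where 3 counts are at most 0.185 CPM. FPKM was computed from the deposited counts and gene lengths. Where a symbol had 2 rows, as for *Aldoa*, the row with more counts was used. Ratios of summed CPM were compared by two-sided exact permutation over 70 splits. The scripts were tested on simulated data. The genes and lists were chosen with earlier results of these data known. Genes were named by a rule: the 10 genes, called genes of the 2 HIF lists and the 5 highest of each, 3 endothelial genes and up to 2 called genes of each other list. *Car9*, *Kdr*, *Rgs5*, *Abcc9*, *Plk2*, *Perp*, *Csf1r*, *Cx3cr1* and genes named in the closing section outside this rule were chosen after their values were seen. Some list genes are not reported here by name.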

Additional observations from a re-analysis of the deposited data

Results flagged for a closer look

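In 8 of 102 group-and-gene combinations tested, 1 sample of a group stood apart from the other 3 by Dixon's criterion, which chance gives in about 1 of 20 groups, or 5.1 of 102. Control 1 was the sample that stood apart in 6 of the 8. *Vhl* was at 69.4 CPM in control 1 and at 53.7 to 55.3 CPM in the other controls. *Hif3a* was at 9.84 CPM in control 1 and at 11.9 to 12.3 CPM in the others. *Eloc*, the elongin C subunit of the VHL ligase, was at 113 CPM in control 1 and at 82.9 to 86.4 CPM in the others. *Ldha* and *Pgk1* were at 1801 and 625 CPM in control 1, against 1271 to 1326 and 517 to 531 CPM in the others. *Rlbp1*, a Müller glial gene, was at 342 CPM in control 1 and at 191 to 193 CPM in the others. Outside control 1, *Pdgfra* was at 36.8 CPM in *Mettl3*-CKO retina 2 and at 51.4 to 53.01 CPM in the other mutant retinas, and *Ttr* was at 17.8 CPM in control 3 and at 25.1 to 26.05 CPM in the other controls.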

How the results depend on the processing

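The 2 ratios to endothelial transcripts turned direction with the endothelial measure: *Epas1* from -0.48 to 0.52 (*Pecam1*, *Cdh5* and *Cldn5*) and 0.48 (without *Kdr*), and *Adm* from -0.50 to 0.50 and 0.46; the share of *Kdr* in the sum sets this. Of the 10 genes, 2 were called lower, and 1 with the replicate block or without both controls 1 and 4, and 0 to 2 without any one sample; 1 (*Vhl*) was called higher by limma voom. Without any one sample, 0 to 1 of the pathway components and 1 to 5 of the other targets were called lower, and 0 to 1 of the other targets higher. Without both controls 1 and 4 the lens genes *Crygd* and *Crybb1* turned to 1.79 and 0.30. Over all genes, edgeR called 1168 higher and 729 lower, DESeq2 1476 and 1019, limma voom 2142 and 1568, and between 694 and 3171 genes were called in either direction without 1 sample, 3171 without control 1 and 694 without *Mettl3*-CKO retina 1. Deviations of same-numbered samples correlated at -0.11, 0.22, -0.11 and 0.25 for numbers 1 to 4, and numbers 2 and 4 but not 1 and 3 correlated best with their own number, so the numbers were not taken to pair all samples. With the replicate block 1198 genes were higher and 660 lower, and the sign-flip p-values of the ratios, whose values the block cannot change, were 0.125 for *Epas1* (exact, the smallest possible) and 0.375 for *Adm*. *Adm* did not pass a filter of 1 CPM in at least 4 samples and has no value there. *Adm* has the fewest counts (6 to 20 per sample); counting error was not separated from the spread between samples.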

Other observations

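Some targets of the same response had the same split of replicates in both groups. *Pfkfb3*, which raises glycolytic flux, was at 41.6, 43.4, 24.9 and 24.4 CPM in controls 1 to 4 and at 43.0, 47.5, 31.0 and 36.2 CPM in *Mettl3*-CKO retinas 1 to 4. In both groups replicates 1 and 2 were above replicates 3 and 4. The same split, though not the same full order, was present in *P4ha1*, a collagen prolyl hydroxylase subunit (68.1, 56.0, 29.7 and 29.2 CPM in controls, and 58.8, 59.1, 44.8 and 34.3 CPM in *Mettl3*-CKO retinas). It was also present in *Ak4*, a mitochondrial adenylate kinase (14.6, 15.1, 5.93 and 7.74 CPM, and 16.4, 16.2, 10.4 and 11.6 CPM), in *Hk2* (22.9, 27.7, 16.8 and 16.6 CPM, and 23.2, 27.7, 15.99 and 21.7 CPM) and in *Egln3*. *Slc16a3*, a lactate exporter, had this split in the controls (44.3, 46.7, 30.1 and 25.0 CPM) and was level in *Mettl3*-CKO retinas (44.6, 46.9, 45.9 and 47.5 CPM). With the replicate number as a block none of these passed the test (edgeR, adjusted p = 0.144 for *Pfkfb3*, 0.444 for *P4ha1*, 0.112 for *Ak4*, 0.676 for *Hk2*, 0.557 for *Egln3* and 0.152 for *Slc16a3*). These genes were picked after their values were seen, and the share of all tested genes with this split was not counted. The labels do not say what the replicate numbers stand for, and what sets the split was not tested.

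*Gapdh*, a glycolytic gene often used as a reference, was at 81.6 CPM in control 2 and 96.0 CPM in *Mettl3*-CKO retina 2 and at 11.2 to 19.0 CPM in the other samples. It has near-identical copies in the genome, so its counts are uncertain.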
